A study of Mus musculus with 12 samples.

Results

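The question put to the data was whether loss of Tcf7 and gain of the Notch1 intracellular domain, as labelled, act on each gene independently or depend on each other. For every gene the interaction was taken as the difference between the log2 fold change of NICD_TCFKO over NICD_TCFWT libraries, called the NICD pair below, and that of NOTCHWT_TCFKO over NOTCHWT_TCFWT libraries, called the NOTCHWT pair. All 12 libraries of the series entered, and 16024 of the 39017 genes had enough counts to be tested. Genes were then sorted by whether the 2 pairs moved a gene in opposite directions, in the same direction, or in 1 pair only.

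The RNA came from bone marrow LSK cells, sorted as lineage-negative cells with Sca1 and cKit, a gate in which blood stem cells and early progenitors of all lineages are found. Each of the 4 groups has 3 libraries. Per the labels, the NICD_TCFKO mice carried N1IC, the constitutively active intracellular part of Notch1, as a lox-controlled allele at the R26 locus (R26 N1IC lox/+), together with Tcf7 lox/lox and Mx1Cre. The NICD_TCFWT mice carried the R26 allele and Mx1Cre with Tcf7 intact, and the NOTCHWT_TCFKO mice carried Tcf7 lox/lox and Mx1Cre without N1IC. The NOTCHWT_TCFWT mice were wild type, with no Cre transgene listed, so the effect of Mx1Cre in the NOTCHWT pair cannot be told apart from that of the Tcf7 alleles. Mx1Cre is an interferon-inducible Cre, and poly(I:C) at 2 ug/g is given in the labels of all 4 groups. This Cre acts in many interferon-responsive cells and not in LSK cells alone. Cells of both NICD groups were gated as CD45.2+ eGFP+ in addition, so this gate cannot be told apart from the N1IC label. All mice are given as C57BL/6J; Sv/129, all libraries as batch 1, and no label gives an age.

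Notch receptors are cut after ligand binding, and the freed intracellular domain joins the DNA-binding protein RBPJ to switch on targets such as Hes1, Hey1, Dtx1 and Nrarp. Tcf7 encodes TCF-1, a DNA-binding factor that is itself a Notch target in early thymic progenitors and is needed for T lineage specification. Both genes are known from T cell acute lymphoblastic leukaemia, which can start from Notch1 activation, while LSK cells normally hold little T lineage transcript and give rise to myeloid, erythroid and lymphoid cells.

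The 2 labelled genes themselves followed their labels only in part, and both belong to the class of opposite directions. In the NICD pair, Tcf7 (ENSMUSG00000000782, mm10 chromosome 11, 52252371 to 52283014) reached 297, 896 and 615 CPM in NICD_TCFKO libraries, against 5.05, 4.68 and 6.76 CPM in NICD_TCFWT libraries. In the NOTCHWT pair it reached 0.819, 2.76 and 0.267 CPM in NOTCHWT_TCFKO libraries, against 14.3, 10.5 and 19.6 CPM in NOTCHWT_TCFWT libraries. The library order was thus reversed between the pairs with no overlap inside either of them, and the interaction was 10.32 ± 0.97 (log2 ± SE, edgeR quasi-likelihood adjusted p = 9.07e-05). Notch1 (ENSMUSG00000026923, mm10 chromosome 2, 26457903 to 26516663), the receptor gene, was at 591, 887 and 846 CPM in NICD_TCFKO libraries, against 195, 188 and 157 CPM in NICD_TCFWT libraries. It was at 145, 104 and 197 CPM in NOTCHWT_TCFKO libraries, against 541, 622 and 549 CPM in NOTCHWT_TCFWT libraries, with an interaction of 4.04 ± 0.31 (adjusted p = 1.43e-05). Notch1 was thus lower in NICD_TCFWT than in NOTCHWT_TCFWT libraries, although only the former are labelled with N1IC. Counts are per gene, so reads from exons left after deletion, or from N1IC, may be counted for these genes. The sample titles also carry second names, RNIC-Tg for NICD_TCFKO, RNIC-CTRL for NICD_TCFWT, Tcf7-Tg for NOTCHWT_TCFKO and RAD for NOTCHWT_TCFWT libraries, which no label explains. The groups were kept as labelled, and every direction and group name below means the libraries labelled so.

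An interaction of this form can be written as the sum of NICD_TCFKO and NOTCHWT_TCFWT minus the sum of NICD_TCFWT and NOTCHWT_TCFKO on the log2 scale. Libraries of a group correlated at 0.938 to 0.982 across genes and libraries of different groups at 0.879 to 0.961 (Pearson's r of log2 CPM, a description). The gate marker Kit was at 708, 609.7 and 615 CPM in NICD_TCFKO, 762, 847 and 751 CPM in NICD_TCFWT, 774, 684 and 978 CPM in NOTCHWT_TCFKO and 764, 784 and 818 CPM in NOTCHWT_TCFWT libraries. Ly6a, which encodes Sca1, was at 111, 119.6 and 74.8 CPM in NICD_TCFKO libraries, against 87.9, 79.4 and 51.8 CPM in NICD_TCFWT libraries. It fell to 33.1, 33.7 and 45.9 CPM in NOTCHWT_TCFKO libraries, against 120.3, 101 and 148 CPM in NOTCHWT_TCFWT libraries (change -1.71 ± 0.25, adjusted p = 0.00104). Sex was not balanced: the NOTCHWT_TCFWT libraries were all high in Xist with at most 0.0865 CPM of Y-linked transcripts, and the other groups held libraries of both kinds. Library NOTCHWT_TCFKO 1 held 2156 CPM of Xist together with 154 CPM of Y-linked transcripts.

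The 2 pairs moved many more genes in opposite directions than in the same direction. The interaction differed from 0 in 4389 of the 16024 genes tested (27.4%; adjusted p under 0.05 by Benjamini-Hochberg over all genes), with 2219 above 0 (13.8%) and 2170 below 0 (13.5%). Its size among these genes had a median of 1.24 on the log2 scale, and in 1601 of them it was at least 2. The NICD pair alone gave 1161 genes that rose (7.25%) and 825 that fell (5.15%) in NICD_TCFKO libraries. The NOTCHWT pair gave 1738 that rose (10.8%) and 1675 that fell (10.5%) in NOTCHWT_TCFKO libraries. Of the 974 genes that passed in both pairs, which share no library, 938 (5.85% of all tested) moved in opposite directions and 36 (0.225%) in the same direction. These 974 make up 49.0% of the genes called in the NICD pair and 28.5% of those called in the NOTCHWT pair. Of all 16024 genes tested, 3413 were called in the NOTCHWT pair and 1986 in the NICD pair, in either direction.

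Opposite movement came in both orientations. In 513 genes (3.2%) the level rose in the NICD pair and fell in the NOTCHWT pair, with median log2 fold changes of 1.03 and -1.24, and in 425 genes (2.65%) it fell in the NICD pair and rose in the NOTCHWT pair, with medians of -1.11 and 1.25. All 938 passed the test of the interaction, which for most of them follows from 2 calls of opposite sign. Changes of at least 2-fold in both pairs were seen in 252 genes of the first class and 216 of the second. In 463 of the 513 genes every NICD_TCFKO and NOTCHWT_TCFWT library lay above the other 6 libraries, against 5.6% of all genes tested. In 380 of the 425 every one lay below, against 5.02%. The same libraries sorted the genes, so part of this separation follows from the sorting and is no separate support for the classes. Calls in 1 pair only were made for 619 genes that rose in the NICD pair (3.86%), 393 that fell in it (2.45%), 1284 that rose in the NOTCHWT pair (8.01%) and 1155 that fell in it (7.21%). The fitted change in the other pair had the opposite sign in 74.6%, 77.1%, 73.6% and 74.2% of these 4 classes, in that order, against 55.7% of the 11599 genes called in neither pair. A call in 1 pair only does not show that the other pair differed from it, and the interaction itself passed in 474, 295, 953 and 835 of them. A further 889 genes called in neither pair passed it. On either side of the threshold stood Asb13 with an interaction of 0.47 (adjusted p = 0.04995) and Sort1 with -0.51 (adjusted p = 0.05004), both chosen by their place.

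**Figure D1:**
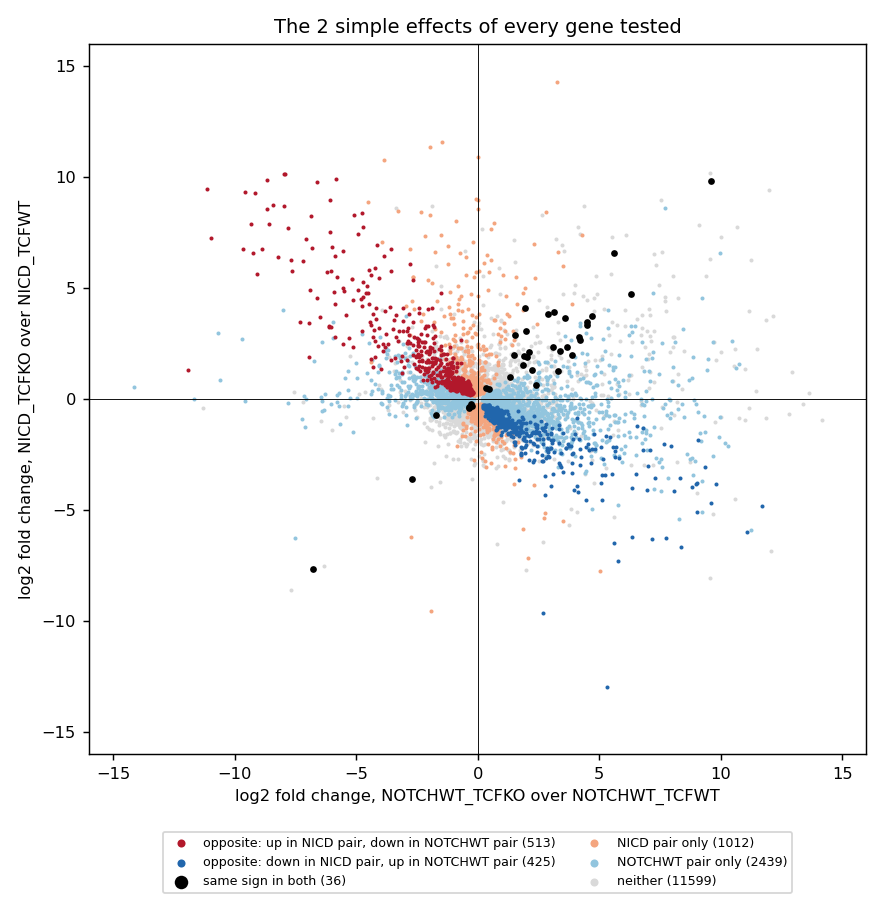
Each point is 1 of the 16024 genes tested, placed by its log2 fold change of NOTCHWT_TCFKO over NOTCHWT_TCFWT (horizontal axis) and of NICD_TCFKO over NICD_TCFWT (vertical axis) and coloured by class, with the number of genes in the legend. The 938 genes of the 2 opposite classes fill the upper left and lower right of the plot, while the 36 black points lie at the upper right and lower left.

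How many genes enter a class depended on single libraries. Without NICD_TCFWT 1 the first opposite class held 330 genes and without NICD_TCFWT 2 it held 331. The second held 229 without NICD_TCFKO 2, 235 without NICD_TCFKO 3, and 233, 211 and 231 without NICD_TCFWT 1, 2 and 3. In the NICD pair 582, 730, 564, 602 and 652 genes rose and 335, 408, 368, 332 and 412 fell without these same 5 libraries, and 305, 507, 355, 379 and 457 genes were called in the NICD pair only. The NOTCHWT pair fell to 1008 lower genes without NOTCHWT_TCFKO 1, and to 1118 higher and 1083 lower genes without NOTCHWT_TCFWT 1, with 1613 and 1511 genes called in the NOTCHWT pair only. No gene of the 938 moved to the same-direction classes in any of the 12 fits without 1 library. No gene with a called interaction changed the sign of its fitted value in them. Each of these fits shares most libraries with the full fit, so this outcome was favoured in advance and is no separate support for the direction. Unless stated otherwise, genes given below with the level in each library or an adjusted p kept their stated calls without each library in turn.

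**Figure D2:**
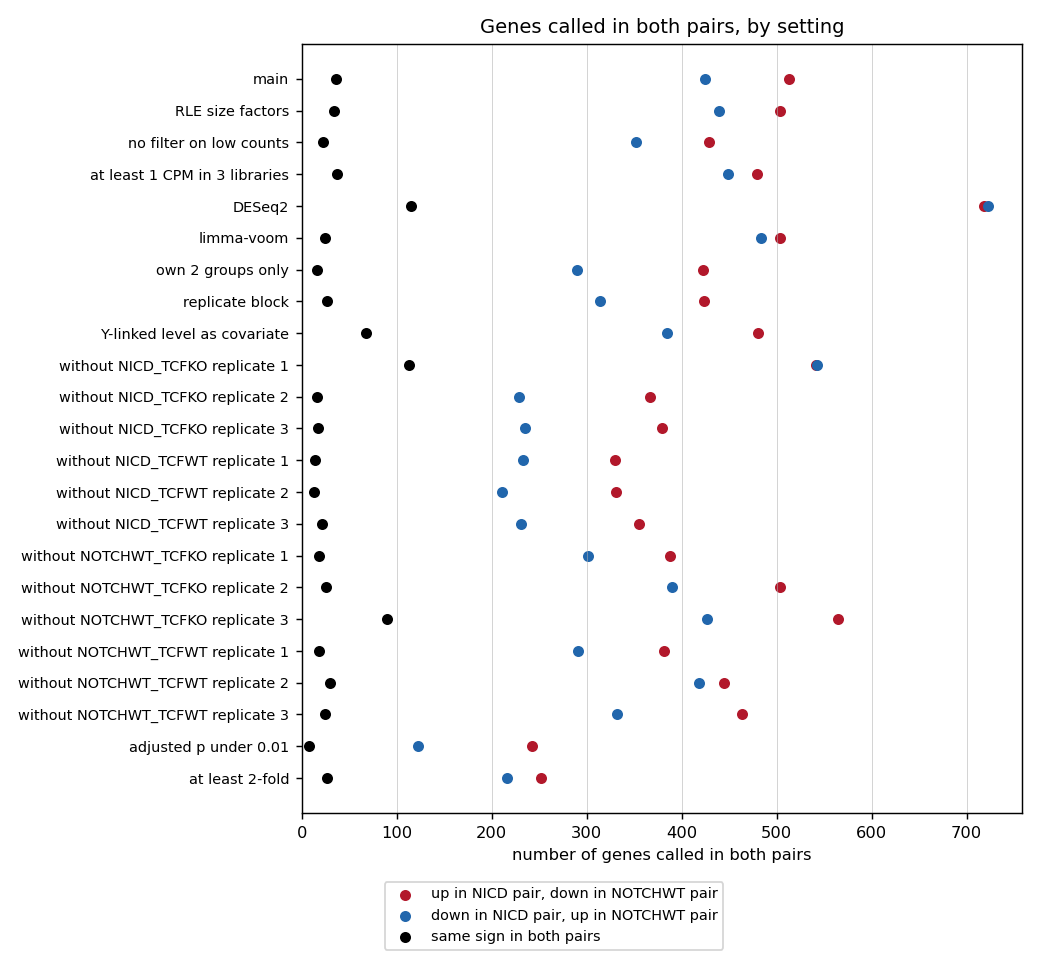
Number of genes called in both pairs under each setting (rows), for the 2 opposite classes (red and blue) and both same-direction classes together (black). Same-direction genes number from 8 to 115 and stay below both opposite classes in every row.

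Many Notch target genes belonged to the first opposite class, that of genes that rose in the NICD pair and fell in the NOTCHWT pair. Of the 19 tested members of the Notch target list, 12 rose in the NICD pair and 12 fell in the NOTCHWT pair. The interaction was above 0 in 13 and below 0 in 3, and the list's median interaction was 9.31 against 0.0073 over all genes. Over all genes tested it was called in 27.4%, above 0 in 13.8% and below 0 in 13.5%, the shares to set beside every list below. In the first opposite class were 10 of the 19, against 3.2% of all genes tested. Summed over the list, the 20 genes held 2234 to 3613 CPM in NICD_TCFKO libraries, against 693 to 709 in NICD_TCFWT libraries, and 563 to 615 CPM in NOTCHWT_TCFKO libraries, against 2278 to 2829.9 in NOTCHWT_TCFWT libraries. In bulk RNA, fewer cells of a type and less RNA per cell cannot be told apart. Dtx1 (ENSMUSG00000029603, mm10 chromosome 5, 120680202 to 120711927), a ubiquitin ligase that modulates Notch signalling, was at 64.7, 165 and 132 CPM in NICD_TCFKO libraries, against 0.0543, 0.154 and 0.162 CPM in NICD_TCFWT libraries. In the NOTCHWT pair it was at 0.0793, 0.425 and 0.121 CPM in NOTCHWT_TCFKO libraries, against 81.5, 82.8 and 91.9 CPM in NOTCHWT_TCFWT libraries. The 6 NICD_TCFKO and NOTCHWT_TCFWT libraries were thus far above the other 6. The log2 fold change was 9.89 ± 0.57 in the NICD pair and -8.67 ± 0.54 in the NOTCHWT pair, and the interaction 18.56 ± 0.78 (adjusted p = 4.3e-07). In NICD_TCFWT 1 and NOTCHWT_TCFKO 1 Dtx1 did not exceed 3 counts, which are 0.0835 and 0.0800 CPM before scaling. The size of such changes thus rests on few reads, also for genes near 0 CPM in some libraries below, such as Trbc2 and Cebpa. Nrarp, a feedback inhibitor of the Notch complex, varied little among replicates. It was at 75.7, 70.7 and 59.9 CPM in NICD_TCFKO libraries, against 6.79, 6.51 and 5.17 CPM in NICD_TCFWT libraries. It was at 6.02, 4.20 and 5.50 CPM in NOTCHWT_TCFKO libraries, against 121, 108 and 114 CPM in NOTCHWT_TCFWT libraries (interaction 7.93 ± 0.22, adjusted p = 1e-08).

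Hes1, a transcriptional repressor of the bHLH family, was at 222, 118 and 134 CPM in NICD_TCFKO libraries, against 7.33, 4.83 and 1.46 CPM in NICD_TCFWT libraries. It was at 10.7, 11.1 and 1.21 CPM in NOTCHWT_TCFKO libraries, against 163, 230.4 and 138 CPM in NOTCHWT_TCFWT libraries, so that the levels of NICD_TCFKO and NOTCHWT_TCFWT libraries overlapped each other and were far above the rest. Its relative Hey1 was not level between the 2 high groups: 22.3, 4.07 and 5.35 CPM in NICD_TCFKO libraries, against 0.57, 0.36 and 0.108 CPM in NICD_TCFWT libraries, and 1.16, 0.664 and 0.17 CPM in NOTCHWT_TCFKO libraries, against 69.8, 109 and 61.4 CPM in NOTCHWT_TCFWT libraries. Notch3, a receptor that is also a target, was at 45.8, 108 and 116 CPM in NICD_TCFKO libraries, against 4.80, 3.50 and 3.60 CPM in NICD_TCFWT libraries. It was at 0.925, 1.51 and 2.38 CPM in NOTCHWT_TCFKO libraries, against 42.9, 53.1 and 39.3 CPM in NOTCHWT_TCFWT libraries, and the interaction was 9.31 ± 0.60 (adjusted p = 5.5e-06). Deptor, which binds and inhibits mTOR, changed by 2.78 ± 0.13 in the NICD pair and -3.38 ± 0.14 in the NOTCHWT pair, with an interaction of 6.16 ± 0.19 (adjusted p = 2e-08). Hey2, named after its values were seen, had no count in NOTCHWT_TCFKO libraries and 0.974 CPM on average in NOTCHWT_TCFWT libraries, at least 37.9-fold lower when 3 counts over the group are taken as the floor.

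Not every Notch target followed this order. Myc, a growth regulator and a Notch target in T cell leukaemia, belonged to the second opposite class with small changes. It was at 262, 288 and 248 CPM in NICD_TCFKO libraries, against 346, 396 and 471 CPM in NICD_TCFWT libraries, and at 357, 328 and 345 CPM in NOTCHWT_TCFKO libraries, against 267, 253 and 295 CPM in NOTCHWT_TCFWT libraries. The interaction was -0.94 ± 0.15 (adjusted p = 0.00128), and the rise of 0.34 ± 0.11 in the NOTCHWT pair lost its call without any 1 of 8 libraries (adjusted p = 0.0511 to 0.115). Its relative Mycn stood in the first opposite class, at 183, 140.2 and 162 CPM in NICD_TCFKO libraries, against 52.5, 41.9 and 33.4 CPM in NICD_TCFWT libraries. It was at 33.1, 28.8 and 50.9 CPM in NOTCHWT_TCFKO libraries, against 223, 224 and 199.8 CPM in NOTCHWT_TCFWT libraries (interaction 4.44 ± 0.31, adjusted p = 7.07e-06). The Notch pathway machinery was mostly in neither class: of 26 tested genes, 20 were called in neither pair, while the interaction passed above 0 in 6 and below 0 in 5, or 42.3% of the list, and its median was 0.027. These 2 counts ranged from 2 to 5 and from 1 to 5 without 1 library. Rbpj itself, at 167, 184 and 178 CPM in NICD_TCFKO libraries against 146, 149 and 148 CPM in NICD_TCFWT libraries, had an interaction of 0.51 ± 0.08 (adjusted p = 0.00133), and its call was lost in the NICD pair without any 1 of 5 libraries (adjusted p = 0.0516 to 0.0814) and in the NOTCHWT pair without any 1 of 4 (0.0522 to 0.0696).

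**Figure D3:**
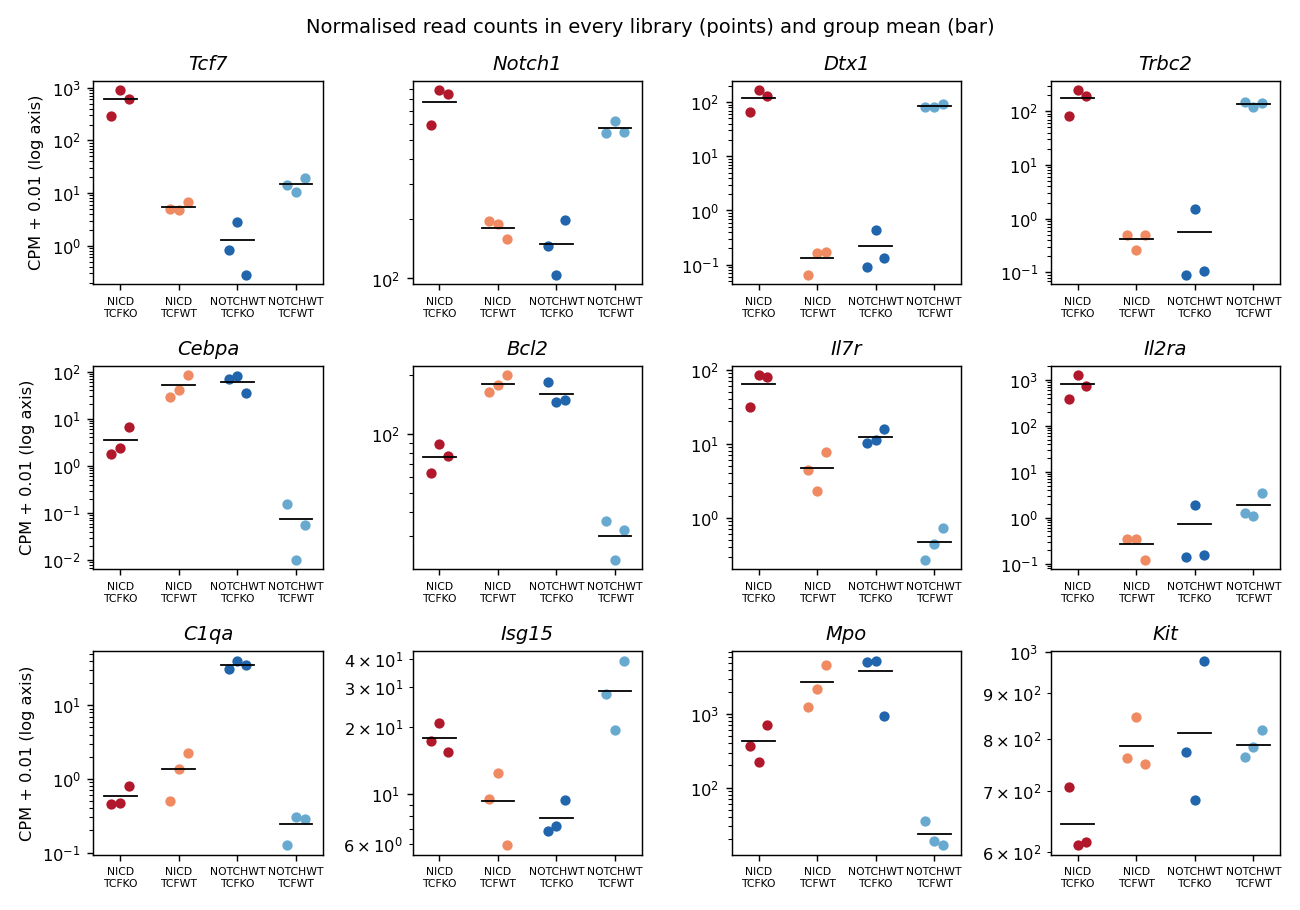
Normalised read counts (CPM + 0.01, log axis with its own range in each panel) of 12 genes in every library, with a bar at the group mean; NICD_TCFKO, NICD_TCFWT, NOTCHWT_TCFKO and NOTCHWT_TCFWT run from left to right. Dtx1 and Trbc2 are high in the outer 2 groups, Cebpa and Bcl2 in the inner 2, Il2ra in NICD_TCFKO, C1qa in NOTCHWT_TCFKO and Isg15 in 2 of 3 NOTCHWT_TCFWT libraries.

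Genes of the T cell receptor and its signalling were higher in NICD_TCFKO than in NICD_TCFWT libraries, and only part of them fell in the NOTCHWT pair. Of 24 tested genes, 15 had an interaction above 0 and 2 below, 7 were in the first opposite class, 11 rose in the NICD pair only, 2 rose in both pairs and 2 rose in the NOTCHWT pair only. Their median interaction was 4.72. Over all genes tested, 13.8% had an interaction above 0, 3.2% were in the first opposite class and 3.86% rose in the NICD pair only. Without NICD_TCFKO 2, 13 of the list rose in the NICD pair, against 20 with all libraries. Trbc2, which encodes constant sequence of the receptor's beta chain, was at 81.997, 246 and 192 CPM in NICD_TCFKO libraries, against 0.489, 0.257 and 0.487 CPM in NICD_TCFWT libraries. It was at 0.0793, 1.49 and 0.097 CPM in NOTCHWT_TCFKO libraries, against 146, 121 and 143 CPM in NOTCHWT_TCFWT libraries. The NOTCHWT_TCFWT libraries thus held about as much of it as the NICD_TCFKO libraries, and the interaction was 16.68 ± 1.19 (adjusted p = 1.91e-05). Lck, the kinase next to the receptor and named after its values were seen, was at 249.8, 556 and 411 CPM in NICD_TCFKO libraries, against 46.4, 34.6 and 24.2 CPM in NICD_TCFWT libraries. It was at 19.8, 12.7 and 39.3 CPM in NOTCHWT_TCFKO libraries, against 210.1, 216 and 182 CPM in NOTCHWT_TCFWT libraries (interaction 6.61 ± 0.64, adjusted p = 9.27e-05).

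Smaller and tighter changes were seen in Lcp2, Fyn and Ikzf2, while Thy1, Cd7, Cd5 and Trat1 moved further. Lcp2, the adaptor SLP-76, was at 214, 257 and 226 CPM in NICD_TCFKO libraries, against 128, 116 and 113 CPM in NICD_TCFWT libraries. It was at 109, 124 and 116 CPM in NOTCHWT_TCFKO libraries, against 234, 241 and 204 CPM in NOTCHWT_TCFWT libraries. The changes were of equal size and opposite sign, 0.96 ± 0.09 in the NICD pair and -0.96 ± 0.09 in the NOTCHWT pair (interaction 1.92 ± 0.13, adjusted p = 4.53e-06). The kinase gene Fyn had 0.77 ± 0.14 and -1.49 ± 0.14 in the same order, and Ikzf2, a zinc finger factor of the Ikaros family, 0.75 ± 0.08 and -1.16 ± 0.08. Thy1, a T lineage surface antigen, was at 81.02, 196 and 186 CPM in NICD_TCFKO libraries, against 20.1, 19.2 and 11.5 CPM in NICD_TCFWT libraries, and at 8.24, 10.1 and 12.6 CPM in NOTCHWT_TCFKO libraries, against 49.95, 52.7 and 34.7 CPM in NOTCHWT_TCFWT libraries. Cd7, a surface antigen of early lymphoid cells, and Cd5, an inhibitor of receptor signalling, had interactions of 9.53 ± 1.00 and 5.98 ± 0.60. Trat1, an adaptor bound to the receptor complex and named for its size within the class, was at 10.5, 25.9 and 34.6 CPM in NICD_TCFKO libraries, against 0.787, 0.18 and 0.703 CPM in NICD_TCFWT libraries. It was at 0.0528, 0.505 and 0.0242 CPM in NOTCHWT_TCFKO libraries, against 6.52, 7.44 and 7.28 CPM in NOTCHWT_TCFWT libraries.

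The promoters of Lcp2, Trat1 and Flt3 are shown because these genes moved in opposite directions between the pairs, Flt3 in the reverse orientation to the other 2, and because each holds at least 1 of the 2 core motifs searched. Sequences are from RefSeq (GRCm38.p6, the mm10 assembly), from 250 bases before to 50 after the gene start, 5′ to 3′ on the gene's strand. Capitals mark TGGGAA, the core of the RBPJ site, and CTTTGA, the core of the TCF/LEF site, on either strand.
Lcp2, chr11:34046678-34046977, plus strand: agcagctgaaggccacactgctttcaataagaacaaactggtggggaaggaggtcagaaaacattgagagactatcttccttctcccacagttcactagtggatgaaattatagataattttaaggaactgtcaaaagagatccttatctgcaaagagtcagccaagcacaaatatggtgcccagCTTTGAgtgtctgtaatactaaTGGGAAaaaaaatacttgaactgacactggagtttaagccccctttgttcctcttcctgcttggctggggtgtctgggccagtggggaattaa
Trat1, chr16:48772013-48772312, minus strand: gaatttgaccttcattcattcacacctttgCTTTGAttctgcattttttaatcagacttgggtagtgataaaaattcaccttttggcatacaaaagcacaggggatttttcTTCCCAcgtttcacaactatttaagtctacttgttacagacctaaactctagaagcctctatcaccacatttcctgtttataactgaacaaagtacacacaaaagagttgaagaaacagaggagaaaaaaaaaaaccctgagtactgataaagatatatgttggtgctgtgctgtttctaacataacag
Flt3, chr5:147400440-147400739, minus strand: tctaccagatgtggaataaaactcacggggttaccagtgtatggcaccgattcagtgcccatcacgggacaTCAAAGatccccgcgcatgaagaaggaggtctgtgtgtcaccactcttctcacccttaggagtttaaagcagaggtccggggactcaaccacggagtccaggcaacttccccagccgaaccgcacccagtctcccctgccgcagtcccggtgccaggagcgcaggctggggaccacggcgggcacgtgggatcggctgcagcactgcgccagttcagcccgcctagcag
In the Lcp2 promoter the TCF/LEF core starts at position -65 and the RBPJ core at -43 from the gene start. In Trat1 the TCF/LEF core starts at -220 and the RBPJ core, on the opposite strand, at -139. In Flt3 the TCF/LEF core lies on the opposite strand at -179. Such short motifs are frequent: TGGGAA occurs in 25.6% and CTTTGA in 16.003% of all 32851 promoters of this length. Among promoters of tested genes the shares were 23.5% and 12.2%, in the first opposite class 23.7% and 12.04%, and in the second 19.1% and 10.9%. Promoter entries were matched for 124 of 171 genes looked up. A match describes letters and no binding.

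Some members of other lists were in the first opposite class, which held 3.2% of all genes tested. They were 2 of 16 NK, innate lymphoid and cytotoxic, 4 of 16 dendritic cell and MHC class II and 1 of 11 mast cell and basophil genes tested. Gzmb, the granzyme of cytotoxic cells, was at 275, 182 and 128 CPM in NICD_TCFKO libraries, against 4.04, 3.60 and 4.22 CPM in NICD_TCFWT libraries. It was at 2.03, 2.89 and 0.655 CPM in NOTCHWT_TCFKO libraries, against 1102, 600.2 and 1324 CPM in NOTCHWT_TCFWT libraries, and was thus highest in the latter (interaction 14.72 ± 0.80, adjusted p = 2.66e-06). Of 16 tested genes of NK, innate lymphoid and cytotoxic cells, 6 had an interaction above 0 and 4 below (62.5% of the list, median 0.30), so Gzmb did not stand for the list. Among dendritic cell and MHC class II genes 4 of 16 tested were in the class, H2-Aa, H2-Ab1, H2-Eb1 and the class II activator Ciita. Over the list 7 interactions were above 0 and 1 below (50%, median 0.28). In the NICD pair 6 members rose and 2 fell, and in the NOTCHWT pair 2 rose and 5 fell. The list summed to 779 to 1533 CPM in NICD_TCFKO libraries, against 1010 to 1047 CPM in NICD_TCFWT libraries, so these 4 did not stand for it. H2-Aa, a class II chain, was at 66.04, 221 and 136 CPM in NICD_TCFKO libraries, against 23.6, 17.3 and 29.8 CPM in NICD_TCFWT libraries, and at 37.4, 36.3 and 58.6 CPM in NOTCHWT_TCFKO libraries, against 222, 94.05 and 269 CPM in NOTCHWT_TCFWT libraries. Its call was lost in the NICD pair without NICD_TCFWT 1 or 2 (adjusted p = 0.0506 to 0.0558) and in the NOTCHWT pair without NOTCHWT_TCFKO 1 or 2 (0.0528 to 0.0566). H2-Ab1 and Ciita lost theirs in the NICD pair without any 1 of 4 and 2 libraries, and Ciita in the NOTCHWT pair without any 1 of 3. Members of the list that rose in the NICD pair numbered 6, and 2 without either of these NICD_TCFWT libraries. Cpa3, a carboxypeptidase of mast cells and their progenitors, was at 172, 263 and 184 CPM in NICD_TCFKO libraries, against 62.998, 61.8 and 59.9 CPM in NICD_TCFWT libraries. It was at 62.1, 69.4 and 36.4 CPM in NOTCHWT_TCFKO libraries, against 239.6, 238 and 350.4 CPM in NOTCHWT_TCFWT libraries. The mast cell protease Tpsb2 moved the other way: 0 CPM in all 3 NICD_TCFKO libraries, against 30.5, 28.9 and 18.6 CPM in NICD_TCFWT libraries, at least 1053-fold lower by the floor of 3 counts over the group. In the NOTCHWT pair Tpsb2 was at 0.925, 0.345 and 0.218 CPM in NOTCHWT_TCFKO libraries, against 0, 0 and 0.0233 CPM in NOTCHWT_TCFWT libraries. Tpsb2 has a close relative in Tpsab1, and reads shared by both cannot be told apart.

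The second opposite class, of genes that fell in the NICD pair and rose in the NOTCHWT pair, held 2.65% of all genes tested. In it were 6 of 30 stem cell, 2 of 25 granulocyte and monocyte and 1 of 13 BCL2 family genes tested. Cebpa (ENSMUSG00000034957, mm10 chromosome 7, 35119293 to 35121928), a transcription factor needed for granulocyte formation, was at 1.75, 2.32 and 6.57 CPM in NICD_TCFKO libraries, against 28.5, 41.3 and 82.7 CPM in NICD_TCFWT libraries. It was at 69.7, 79.003 and 34.7 CPM in NOTCHWT_TCFKO libraries, against 0.144, 0 and 0.0467 CPM in NOTCHWT_TCFWT libraries. The NOTCHWT_TCFWT libraries lay far below all others (interaction -13.65 ± 1.16, adjusted p = 4.43e-05). Flt3, a cytokine receptor of multipotent and lymphoid-primed progenitors, was at 127, 99.4 and 131 CPM in NICD_TCFKO libraries, against 569.6, 559 and 515 CPM in NICD_TCFWT libraries. It was at 400.3, 279.8 and 656 CPM in NOTCHWT_TCFKO libraries, against 48.6, 73.9 and 42.3 CPM in NOTCHWT_TCFWT libraries, with no overlap between the 6 higher and the 6 lower (interaction -5.22 ± 0.43, adjusted p = 2.88e-05). Bcl2, an inhibitor of apoptosis, was at 63.04, 88.8 and 76.9 CPM in NICD_TCFKO libraries, against 163, 178 and 199 CPM in NICD_TCFWT libraries. It was at 185, 145 and 149.97 CPM in NOTCHWT_TCFKO libraries, against 35.9, 22.7 and 32.3 CPM in NOTCHWT_TCFWT libraries (interaction -3.64 ± 0.26, adjusted p = 6.02e-06). Of the 13 tested BCL2 family genes it was the only one of the class, and 11 were called in neither pair.

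Of 30 tested stem cell genes, 15 had an interaction below 0 and 3 above (60.0% called, median -0.90), against 13.5% and 13.8% of all genes tested. In the second opposite class were 6 of them: Mecom, Hlf, Cd34, Cdkn1c, Hoxa10 and Lmo2. Lmo2, a bridging factor of stem cells that can drive T cell leukaemia, was at 350.4, 142 and 233 CPM in NICD_TCFKO libraries, against 779, 807 and 702 CPM in NICD_TCFWT libraries. It was at 645, 571 and 760.2 CPM in NOTCHWT_TCFKO libraries, against 254, 266 and 239 CPM in NOTCHWT_TCFWT libraries. Cdkn1c, the cell cycle inhibitor p57, changed by -2.21 ± 0.41 in the NICD pair and 3.62 ± 0.45 in the NOTCHWT pair at low levels, up to 7.06 CPM. Hoxa10, Hlf and Mecom had interactions of -4.48 ± 0.60, -3.75 ± 0.57 and -2.93 ± 0.54, but each lost its call in the NICD pair without any 1 of 3, 5 and 6 libraries (adjusted p up to 0.0669 for Hoxa10 and 0.0852 for Hlf). In the NOTCHWT pair Mecom lost its call without any 1 of 4 libraries and Cd34 without any 1 of 8. The stem cell genes that fell in the NICD pair numbered 9 with all libraries, 15 without NICD_TCFKO 1 and 3 to 4 without any other NICD library, and the 9 that rose in the NOTCHWT pair became 5 without NOTCHWT_TCFKO 3. The 15 tested members of the list called in neither pair included Kit and Procr. Among 14 tested T cell leukaemia oncogenes, Mycn, Notch1 and Notch3 were in the first opposite class and Lmo2, Hoxa10, Mef2c, Myc and Bcl2 in the second, so the list was split (3 above 0, 7 below 0, median -0.81). These classes held 3.2% and 2.65% of all genes tested. The chromatin genes Hdac9, a histone deacetylase, and Cbx7, a Polycomb subunit, were in the second class with interactions of -2.84 ± 0.25 and -2.64 ± 0.31. Of all 30 tested chromatin regulators, 16 had an interaction above 0 and 2 below, mostly small (median 0.37), against 13.8% and 13.5% of all genes tested.

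Platelet genes that passed were mostly lower in NICD_TCFKO than in NICD_TCFWT libraries. Of 17 tested members 9 had an interaction below 0 and 1 above (58.8%, median -1.62). In the NICD pair only 5 fell, and 2 were in the second opposite class, against 2.45% and 2.65% of all genes tested. Those that fell in the NICD pair numbered 7, and 4 without NICD_TCFWT 3. Pf4, a platelet chemokine, was at 1.05, 0.315 and 2.61 CPM in NICD_TCFKO libraries, against 19.9, 15.8 and 32.8 CPM in NICD_TCFWT libraries. It was at 13.9, 12.4 and 6.23 CPM in NOTCHWT_TCFKO libraries, against 0.981, 0.628 and 0.49 CPM in NOTCHWT_TCFWT libraries (interaction -8.06 ± 0.97, adjusted p = 0.000257). Gp9, a subunit of the platelet von Willebrand factor receptor, fell by 2.10 ± 0.39 on the log2 scale in the NICD pair, with 0.90 ± 0.38 (adjusted p = 0.119) in the NOTCHWT pair. Further genes named for their size in the class, the potassium channel subunit Kcng1 and the monocarboxylate carrier Slc16a11, had interactions of -10.33 ± 0.64 and -14.02 ± 1.21.

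Granule and monocyte genes rose in the NOTCHWT pair, and few passed in the NICD pair. Of 25 tested granulocyte and monocyte genes, 16 had an interaction below 0 (64.0%, median -4.27). In the NOTCHWT pair only 15 rose, against 8.01% of all genes tested, and Cebpa and Csf3r were in the second opposite class. The 17 that rose in the NOTCHWT pair became 11 without NOTCHWT_TCFWT 1 or 3, and the 2 that fell in the NICD pair became 5 without NOTCHWT_TCFKO 3. Their summed level was 834 to 2139.6 CPM in NICD_TCFKO libraries, against 2546 to 7901 in NICD_TCFWT libraries, and 2131 to 12536 CPM in NOTCHWT_TCFKO libraries, against 404 to 539.6 in NOTCHWT_TCFWT libraries. Mpo, the myeloperoxidase of neutrophil granules, was at 368, 225 and 713 CPM in NICD_TCFKO libraries, against 1253, 2163 and 4676 CPM in NICD_TCFWT libraries. It was at 5083, 5344 and 949 CPM in NOTCHWT_TCFKO libraries, against 35.4, 18.7 and 16.4 CPM in NOTCHWT_TCFWT libraries, where library NOTCHWT_TCFKO 3 was the lowest of its group. The rise in the NOTCHWT pair was 7.34 ± 0.94 and the change in the NICD pair -2.63 ± 0.76 (adjusted p = 0.0525), which missed the threshold. The neutrophil elastase gene Elane was more uneven: 12.2, 12.5 and 58.7 CPM in NICD_TCFKO, 8.93, 12.9 and 307 CPM in NICD_TCFWT, 690.3, 828 and 71.6 CPM in NOTCHWT_TCFKO and 0.519, 0.198 and 0.583 CPM in NOTCHWT_TCFWT libraries. Late granule genes of the list, among them S100a8, S100a9, Ltf, Camp and Ngp, were called in neither pair.

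Genes of bone marrow macrophages, which an LSK gate should hold few of, stood out in NOTCHWT_TCFKO libraries. Of 19 tested markers 17 had an interaction below 0 (89.5%, median -7.23). In the NOTCHWT pair only 11 rose, and 6 were in the second opposite class, against 8.01% and 2.65% of all genes tested. The 6 that fell in the NICD pair became 3 without NICD_TCFKO 2, NICD_TCFWT 2, NICD_TCFWT 3 or NOTCHWT_TCFKO 1. The 20 markers summed to 119 to 190.4 CPM in NICD_TCFKO libraries, against 104 to 218 CPM in NICD_TCFWT libraries. In the other pair they summed to 808 to 1156 CPM in NOTCHWT_TCFKO libraries, against 120.3 to 145 CPM in NOTCHWT_TCFWT libraries. C1qa, a complement chain made by tissue macrophages and named after its values were seen, was at 0.45, 0.46 and 0.797 CPM in NICD_TCFKO libraries, against 0.489, 1.34 and 2.27 CPM in NICD_TCFWT libraries. It was at 31.1, 40.5 and 34.8 CPM in NOTCHWT_TCFKO libraries, against 0.115, 0.298 and 0.28 CPM in NOTCHWT_TCFWT libraries (rise of 7.24 ± 0.59, adjusted p = 2.74e-05). Adgre1, the F4/80 antigen and also named after its values were seen, was at 0.375, 1.43 and 2.91 CPM in NICD_TCFKO libraries, against 0.489, 0.797 and 2.33 CPM in NICD_TCFWT libraries, and at 21.7, 30.2 and 17.8 CPM in NOTCHWT_TCFKO libraries, against 0.0577, 0.331 and 0.187 CPM in NOTCHWT_TCFWT libraries. Mertk, a receptor for apoptotic cells, rose by 7.94 ± 0.51, and Hmox1, the haem oxygenase, by 5.45 ± 0.34 in the same pair, in all 3 libraries. Hmox1 was lower in the NICD pair, at 0.95, 1.65 and 2.32 CPM in NICD_TCFKO libraries, against 3.69, 6.27 and 6.25 CPM in NICD_TCFWT libraries. Whether these transcripts came from macrophages among the sorted cells was not tested, nor was their part in the other changes of the NOTCHWT pair.

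A set of genes rose in the NICD pair with no call in the NOTCHWT pair. Il2ra, the alpha chain of the interleukin 2 receptor and a marker of early T cells, was at 395, 1265 and 745 CPM in NICD_TCFKO libraries, against 0.326, 0.334 and 0.108 CPM in NICD_TCFWT libraries. It was at 0.132, 1.86 and 0.145 CPM in NOTCHWT_TCFKO libraries, against 1.27, 1.06 and 3.38 CPM in NOTCHWT_TCFWT libraries. Unlike Dtx1 or Trbc2, it was far lower in NOTCHWT_TCFWT than in NICD_TCFKO libraries (rise of 11.59 ± 1.09 in the NICD pair, interaction 13.07 ± 1.37, adjusted p = 0.000183). Gata3, a T lineage factor, was at 32.8, 68.7 and 51.99 CPM in NICD_TCFKO libraries, against 12.9, 10.6 and 10.7 CPM in NICD_TCFWT libraries. It was at 10.5, 8.18 and 12.7 CPM in NOTCHWT_TCFKO libraries, against 19.3, 13.3 and 12.04 CPM in NOTCHWT_TCFWT libraries. Bcl11b, needed for T lineage commitment, was at 17.8, 86.3 and 94.7 CPM in NICD_TCFKO libraries, and no other library exceeded 0.983 CPM. Its interaction of 7.26 ± 1.67 (adjusted p = 0.0111) lost its call without NOTCHWT_TCFWT 3 (0.0613) and by limma-voom (0.156). Cd3e, a signalling chain of the receptor, was at 3.88, 25.98 and 28.6 CPM in NICD_TCFKO libraries, and the rise of 8.42 ± 1.98 passed, while the interaction did not (adjusted p = 0.164). Without NOTCHWT_TCFKO 2, which held 1.73 CPM, that adjusted p was 0.0114, and the rise itself was lost without any 1 of 5 libraries (0.0569 to 0.0918). Library NICD_TCFKO 1, which held Y-linked transcripts, was the lowest of its group for Il2ra, Gata3, Bcl11b and Cd3e alike. With the Y-linked level as a covariate the interactions of Il2ra, Gata3 and Bcl11b kept their calls.

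Of 25 tested early T lineage genes, 13 had an interaction above 0 and 3 below (64.0%, median 0.45), against 13.8% and 13.5% of all genes tested. Tcf7, Runx1, Ikzf2, Cd7 and Thy1 were in the first opposite class, and Gata3, Bcl11b, Tcf12, Ets1 and Id2 rose in the NICD pair only. These classes held 3.2% and 3.86% of all genes tested. Dntt, the polymerase that adds bases to receptor joints, went another way, at 39.5, 142 and 246 CPM in NICD_TCFKO libraries, against 276, 199 and 252 CPM in NICD_TCFWT libraries. It was at 327, 126 and 492 CPM in NOTCHWT_TCFKO libraries, against 7.41, 9.78 and 5.39 CPM in NOTCHWT_TCFWT libraries, with a rise of 5.39 ± 0.76 in the NOTCHWT pair. Rag1, a recombinase subunit, was at 19.7, 54.7 and 52.97 CPM in NICD_TCFKO libraries, against 6.57, 2.06 and 3.79 CPM in NICD_TCFWT libraries. It was at 5.42, 5.05 and 14.1 CPM in NOTCHWT_TCFKO libraries, against 7.96, 9.42 and 10.3 CPM in NOTCHWT_TCFWT libraries. Dntt and Rag1 were named after their values were seen. Lef1, the relative of Tcf7, was called in neither pair, with at most 7.197 CPM in any library.

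**Figure D4:**
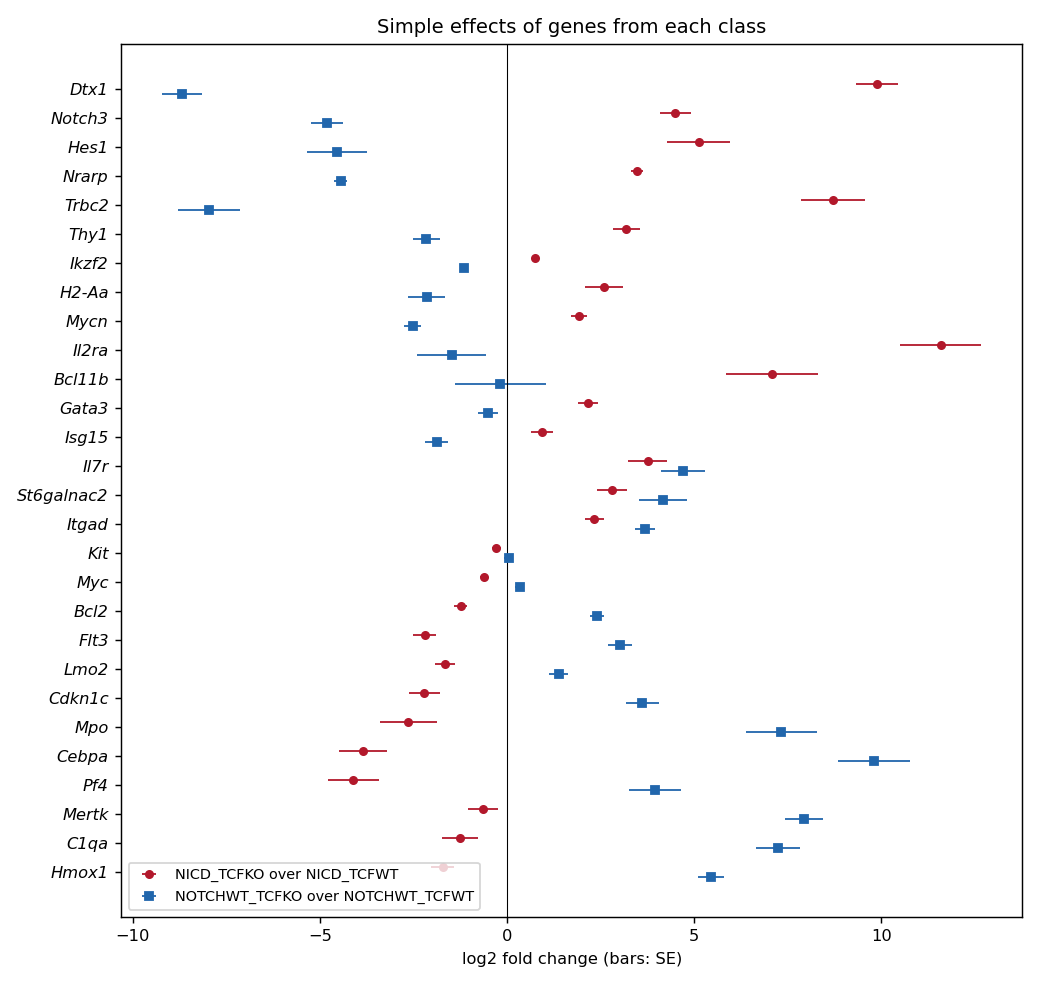
Log2 fold changes (points, with SE as bars) of NICD_TCFKO over NICD_TCFWT in red and of NOTCHWT_TCFKO over NOTCHWT_TCFWT in blue, for genes from each class. Dtx1 and Cebpa lie on opposite sides of 0 in the 2 pairs, Il2ra departs from 0 in the NICD pair, C1qa in the NOTCHWT pair, and Il7r lies above 0 in both.

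Interferon-stimulated genes were lower in NOTCHWT_TCFKO than in NOTCHWT_TCFWT libraries. Of 29 tested genes 16 fell in the NOTCHWT pair, against 10.5% of all genes tested, and Rsad2 rose in it. In the NICD pair edgeR called 0 (3 at an unadjusted p under 0.05), DESeq2 2 and limma-voom 0, while 14 had an interaction above 0 and 1 below (51.7%, median 0.63). Summed over the list they were at 1416 to 1515 CPM in NICD_TCFKO libraries, against 1097 to 1534 CPM in NICD_TCFWT libraries. In the other pair the sum was 1007 to 1239 CPM in NOTCHWT_TCFKO libraries, against 1769.5 to 3128 CPM in NOTCHWT_TCFWT libraries. Isg15, a ubiquitin-like protein, was at 17.3, 20.8 and 15.4 CPM in NICD_TCFKO libraries, against 9.55, 12.5 and 5.92 CPM in NICD_TCFWT libraries, and at 6.87, 7.22 and 9.43 CPM in NOTCHWT_TCFKO libraries, against 27.8, 19.3 and 39.3 CPM in NOTCHWT_TCFWT libraries. Rsad2, an antiviral enzyme, went the other way with 1.77 ± 0.26 in the NOTCHWT pair, and Mx1, Ifit1, Ifit2 and Ifit3 were called in neither pair. Such genes respond to poly(I:C), which all groups received, and the time since injection is not given in the sources used here.

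A few genes named for their size in the NOTCHWT pair had no count in any NOTCHWT_TCFKO library. Klk1b22, a kallikrein of a large gene family, was at 16.4, 7.14 and 27.5 CPM in NICD_TCFKO libraries, against 15.3, 12.9 and 22.9 CPM in NICD_TCFWT libraries. It was at 0 CPM in all 3 NOTCHWT_TCFKO libraries, against 11.9, 7.64 and 12.5 CPM in NOTCHWT_TCFWT libraries, at least 417-fold lower by the floor of 3 counts over the group. Ccnb1ip1, a meiosis gene, was at 1.70, 5.59 and 8.29 CPM in NICD_TCFKO libraries, against 2.23, 1.85 and 4.41 CPM in NICD_TCFWT libraries. It was at 0 CPM in all 3 NOTCHWT_TCFKO libraries, against 2.86, 1.16 and 11.3 CPM in NOTCHWT_TCFWT libraries, at least 198-fold lower. The third, Nkx1-2, was also uneven in NOTCHWT_TCFWT libraries (4.21, 0.132 and 11.9 CPM).

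Movement in the same direction was rare. The 29 genes that rose in both pairs (0.181%) and the 7 that fell in both (0.0437%) include 4 and 1 with a called interaction, so that for most of them the size of the 2 changes was not shown to differ. These 36 became 16 and 17 without NICD_TCFKO 2 and 3, and 14, 13 and 21 without NICD_TCFWT 1, 2 and 3. They became 18 without NOTCHWT_TCFKO 1 and 18 without NOTCHWT_TCFWT 1, while 113 were found without NICD_TCFKO 1 and 90 without NOTCHWT_TCFKO 3. Il7r, the interleukin 7 receptor of lymphoid progenitors, was at 31.7, 83.4 and 78.6 CPM in NICD_TCFKO libraries, against 4.37, 2.29 and 7.63 CPM in NICD_TCFWT libraries. It was at 10.3, 11.3 and 15.9 CPM in NOTCHWT_TCFKO libraries, against 0.26, 0.43 and 0.724 CPM in NOTCHWT_TCFWT libraries. The libraries of both groups labelled Tcf7-deleted were thus above those of their own comparison, by 3.76 ± 0.53 and 4.70 ± 0.59, and the interaction was -0.94 ± 0.72 (adjusted p = 0.376). St6galnac2, a sialyltransferase, was at 29.8, 70.6 and 90.4 CPM in NICD_TCFKO libraries, against 11.5, 5.58 and 10.2 CPM in NICD_TCFWT libraries. It was at 0.898, 1.33 and 0.97 CPM in NOTCHWT_TCFKO libraries, against 0.0288, 0.0992 and 0.0467 CPM in NOTCHWT_TCFWT libraries, so the 2 pairs were at different levels.

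Itgad, an integrin alpha chain of macrophages, rose in both pairs by different amounts: 2.33 ± 0.25 in the NICD pair and 3.68 ± 0.27 in the NOTCHWT pair (interaction -1.35 ± 0.34, adjusted p = 0.0139). The interaction lost its call by limma-voom (0.0567). Trim59, named after its values were seen, varied little among replicates, at 141, 143 and 159 CPM in NICD_TCFKO libraries, against 106, 110.05 and 101 CPM in NICD_TCFWT libraries. It was at 137, 137 and 132 CPM in NOTCHWT_TCFKO libraries, against 106, 112 and 103 CPM in NOTCHWT_TCFWT libraries. Dhrs3, a retinal reductase, fell in both pairs, at 38.4, 35.3 and 37.2 CPM in NICD_TCFKO libraries, against 55.9, 58.5 and 67.5 CPM in NICD_TCFWT libraries, and 31.5, 27.1 and 47.98 CPM in NOTCHWT_TCFKO libraries, against 123, 112 and 115 CPM in NOTCHWT_TCFWT libraries. Its fall in the NICD pair lost its call without any 1 of 4 libraries (adjusted p = 0.0553 to 0.0759). Gt(ROSA)26Sor, the transcript of the R26 locus that the N1IC allele is placed in, was also named after its values were seen. It was at 7.002, 8.96 and 7.84 CPM in NICD_TCFKO libraries, against 4.97, 5.12 and 5.38 CPM in NICD_TCFWT libraries, and at 13.3, 11.7 and 13.6 CPM in NOTCHWT_TCFKO libraries, against 2.54, 2.02 and 2.71 CPM in NOTCHWT_TCFWT libraries. All 4 groups were separate, with the NOTCHWT_TCFKO libraries, which carry no R26 allele per the labels, the highest. The annotation classes it as antisense, so without a stated strand setting reads of the gene on the other strand may be included, and its call in the NICD pair was lost without any 1 of 5 libraries (adjusted p = 0.0658 to 0.0973).

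The remaining lists are given by their interaction calls, against 27.4% of all genes. Of 20 tested erythroid genes edgeR called 0 in either pair (2 in the NICD and 4 in the NOTCHWT pair at an unadjusted p under 0.05), DESeq2 1 and 0, and limma-voom 0 in both. The interaction passed in 1, Car2, chosen after its value was seen, which lost it without any 1 of 7 libraries (adjusted p = 0.0516 to 0.0776). Without NICD_TCFKO 3, 4 erythroid genes rose in the NOTCHWT pair and 3 had a called interaction below 0, Hba-a1, Hba-a2 and Hbb-bs gaining their calls there. Haemoglobin transcripts reached 171 CPM of Hbb-bs in library NOTCHWT_TCFKO 2 alone. Immediate-early genes held 1 call of 18, Fosl2, and Myc and ribosome biogenesis genes 2 of 26, Myc and Mycn themselves. Cell cycle genes held 4 of 30 above 0, Cdc25a, Mcm4, Tyms and Uhrf1. Mcm4 lost its call without any 1 of 6 libraries and Tyms without NOTCHWT_TCFWT 1. The count became 7 without NICD_TCFKO 3 or NOTCHWT_TCFKO 2 and 2 without NOTCHWT_TCFWT 1. Of 16 p53 targets 6 were above 0 and 2 below (50%), a count above 0 that ranged from 2 to 6 without 1 library, with Trp53inp1 at 1.97 ± 0.31 the call with the smallest adjusted p. B lineage genes had 2 above and 4 below of 17 (35.3%), and CDK inhibitors and imprinted genes 1 above and 5 below of 14 (42.9%). Wnt pathway genes had 4 above and 3 below of 14 (50%), lymphoid-primed genes 5 and 5 of 18 (55.6%), mast cell and basophil genes 1 and 3 of 11 (36.4%), and stromal and endothelial genes 1 and 2 of 8 (37.5%). Of the 5 sex-linked genes edgeR and limma-voom called 0 (0 at an unadjusted p under 0.05), and DESeq2 3. Their median interaction was -12.72, and all groups but NOTCHWT_TCFWT mixed libraries high in Xist with libraries high in Y-linked transcripts. The 0 calls thus do not show that sex was balanced in the interaction.

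**Figure D5:**
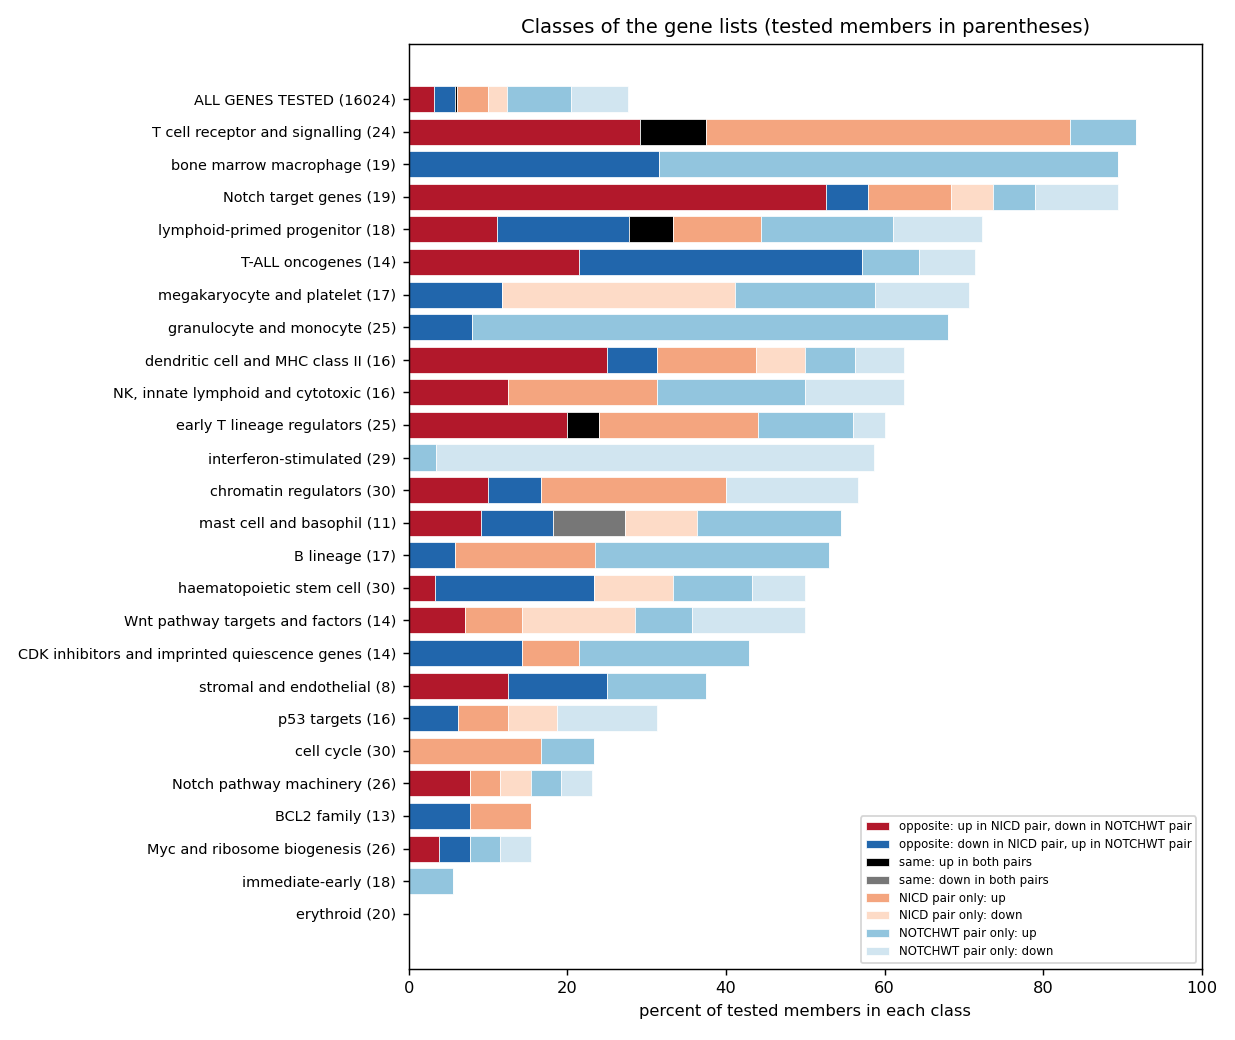
Percent of the tested members of each gene list (rows, number tested in parentheses) that fell into each class, with all 16024 genes in the top row; members called in neither pair are left blank. Notch target genes are mostly in the first opposite class (10 of 19), macrophage genes in the second or in the NOTCHWT pair only (17 of 19), interferon-stimulated genes in the NOTCHWT pair only (17 of 29), and no erythroid gene is in any class.

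On linear mean CPM the difference of differences turned its sign in 2 of the 2219 genes above 0 and in 2 of the 2170 below, none of them in the opposite classes. It turned in 13 of the 36 same-direction genes, Il7r, St6galnac2, Adam2 and March1 among them, whose interactions did not pass. Across all genes tested the 2 simple effects had a Pearson's r of -0.26 and a Spearman's rho of -0.35, a description over genes, which are not independent. Opposite fitted signs were found in 95.1% of genes with a called interaction and in 49.8% of the others, a difference that the form of the interaction itself favours. Genes on chromosome X made up 2.73% of the first opposite class and 2.59% of the second, against 3.81% of all genes tested.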

How the data were processed

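RNA-seq was made from sorted bone marrow LSK cells, 12 libraries in 4 groups of 3, with a PicoPure extraction, a TruSeq RNA and Nextera XT preparation and single-end 75 nt reads on a NextSeq 500, per the labels' protocols. The deposited table holds counts per gene, not normalised. The submitters' processing notes name mm10, featureCounts 1.4.4, HISAT2, cutadapt 1.9.1, limma, edgeR 3.28.0 and bcl2fastq 2.17, with no role or order, and the strand setting is not given in the sources used here. Totals were 30453271 to 43790674 counts per library over 39017 genes, and 15330 genes, all 37 mitochondrial ones among them, were at 0 throughout. No label ties a library to an animal, so p-values measure the spread between libraries, which may be technical.

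Group and replicate came from the labels, and count columns were matched to samples by name. Genes were tested with edgeR 4.0.16 in R 4.3.3 (quasi-likelihood, robust, TMM scaling, filterByExpr) in 1 fit of all 12 libraries with a mean for each group. In each library the 16024 genes kept made up 99.9% of counts or more, and the common coefficient of biological variation was 0.299. The 2 simple effects and their difference were contrasts of that fit, with p-values adjusted by Benjamini-Hochberg over all genes and a threshold of 0.05. The SE of a log2 fold change is its size over the square root of F. CPM values use TMM-scaled library sizes, and a lower bound against a group at 0 uses 3 counts over the group. Symbols of 37607 genes came from a table of gene names, and coordinates from GENCODE M21. The scripts were tested on simulated counts.

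The 26 gene lists (485 genes), the members and the rule for names were chosen with earlier results of these data known. Names are Tcf7, Notch1 and 18 further genes set by hand, then for each class the 8 genes (2 calls) or 6 genes (1 call) with the largest changes among those with a mean of at least 5 CPM in their highest group, then up to 4 members of each list with the smallest interaction p. The choice by size passed over sex-linked genes, receptor segments, pseudogenes, Rik clones and predicted genes. Members of a list or class that are named to say which ones a count holds, Kit, Ly6a and Hbb-bs as markers, and genes said to be so were named outside this rule.

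Alternatives were DESeq2 1.42.0 scaling and test, limma-voom (limma 3.58.1), other filters and thresholds, each pair fitted alone, a replicate block, a covariate of Y-linked expression, linear CPM and the removal of each library in turn.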

Additional observations from a re-analysis of the deposited data

Results flagged for a closer look

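The changes differed between the NICD and the NOTCHWT pair, by the edgeR test of the interaction, in 2219 genes above 0 and 2170 below 0. Among the labelled genes the interaction was 10.32 for Tcf7 and 4.04 for Notch1 on the log2 scale. Both were higher in NICD_TCFKO than in NICD_TCFWT libraries and lower in NOTCHWT_TCFKO than in NOTCHWT_TCFWT libraries. The direction for Tcf7 thus went against the label in the NICD pair. Notch1 was also lower in NICD_TCFWT than in NOTCHWT_TCFWT libraries, although only the former are labelled with N1IC. The 20 Notch target genes summed to 693 to 709 CPM in NICD_TCFWT libraries, against 2278 to 2829.9 CPM in NOTCHWT_TCFWT libraries. These 2 groups were not tested against each other. For Dtx1, a Notch target that the labels do not name, the interaction was 18.56. No cause of these differences was tested.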

How the results depend on the processing

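Apart from linear CPM, under which 2 genes above and 2 below 0 turned, no gene with a called interaction changed the sign of its fitted value under the alternatives. No gene of the opposite classes became a same-direction gene. The alternatives use the same libraries or most of them, so this outcome was favoured in advance. Of the 4389 interaction calls, from 2383 (54.3%, adjusted p under 0.01) to 4376 (99.7%, DESeq2) were kept, and 3216 (73.3%) with Y-linked expression as a covariate. With the tools changed, DESeq2 called 1468 genes that fell in the NICD pair, 723 that fell in the NICD and rose in the NOTCHWT pair, 115 in the same direction and 1630 in the NICD pair only. Same-direction genes numbered 22 with no filter, 16 with each pair fitted alone and 68 with the Y-linked covariate. A fit of each pair alone gives no interaction. At adjusted p under 0.01 the interaction held 1217 genes above and 1166 below 0. The NICD pair then held 437 and 213, the NOTCHWT pair 825 and 831, the first and second opposite class 242 and 122, the same direction 8, the NICD pair only 278 and the NOTCHWT pair only 1284. With changes of at least 2-fold, 1061 interactions were above and 1452 below 0, the NICD pair held 484 and 339, the NOTCHWT pair 1067 and 692, the opposite classes 252 and 216, the NICD pair only 328 and the NOTCHWT pair only 1264. Without 1 library at a time the interaction was above 0 in 1703 to 2244 and below 0 in 1774 to 2436 genes. The NICD pair then held 564 to 1463 higher and 332 to 1225 lower genes, and the NOTCHWT pair 1118 to 1993 higher and 1008 to 1854 lower. The opposite classes held 330 to 565 and 211 to 542, the same direction 13 to 113, the NICD pair only 305 to 1492 and the NOTCHWT pair only 1511 to 2953. The cause of these changes was not tested.

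The main fit did not pair libraries by replicate number. Deviations of same-numbered libraries correlated at 0.312, 0.0976 and 0.458 in the NICD pair, all above 0, and at 0.0075, -0.151 and -0.206 in the NOTCHWT pair. Whether same-numbered libraries belong together was not tested. With the replicate block 1983 interactions were above and 1971 below 0, the NICD pair held 902 and 649, the NOTCHWT pair 1479 and 1425, and the opposite classes 423 and 314 genes.

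Of 167 genes named by rule or after their values were seen, 143 had a called interaction and 40 of these lost it under some alternative. Apart from linear CPM, which turned 4, the sign turned under some alternative in 5, and none of these had a called interaction. Lef1, at 0.14, was at -0.039 by DESeq2, -0.0059 by limma-voom, -0.68 with the replicate block, -2.16 with the Y-linked covariate, and from -3.94 to 2.27 without 1 library. Mcpt4 was at 0.37 and Tpm1 at 0.20 with the covariate, and Tdrd7 at -0.0036 with at least 1 CPM in 3 libraries. Without 1 library March1 ran from -2.29 to 0.068, Mcpt4 from -4.18 to 1.44, Tpm1 from -0.17 to 0.097 and Tdrd7 from -0.046 to 0.11. With 3 libraries per group, a count of 0 at these depths does not show that a transcript is absent.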
